A study of Saccharomyces cerevisiae with 16 samples.

Results

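On 2 of the 16 arrays of this series, the first array labelled MA1 and the first array labelled MA6, the transcript of CCT2 was more than 4-fold below its level on each of the other 14 arrays. These arrays are called CCT2-low here. They were picked by sample title and lie under a CCT2 value of 11.5 on the log2 scale, so CCT2 chose them and their values below are a description with no test. The CCT2 values were 10.64 and 10.47. The nearest array beyond the threshold, MA6 replicate 2, stood at 12.93, so no array lay close to the limit.

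Total RNA of 8 strains of budding yeast, Saccharomyces cerevisiae, was hybridized to Affymetrix arrays (Yeast Genome 2.0, 2 arrays per strain). The cultures were kept at 30 °C and taken at an optical density of 0.5. CCT2 is the gene of a subunit of CCT (also called TRiC), the cytosolic chaperonin. CCT is a double ring in which every ring holds 8 related subunits, and ATP binding and hydrolysis by these subunits drive the folding of actin, tubulin and other proteins inside the cavity. In budding yeast each of the subunit genes is essential.

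By label, MA1 carries the substitution D96E in CCT1 (gene TCP1), with URA3 and KANMX4 as markers and a CBP tag on CCT6. MA6 carries D89E in CCT6 itself, with the CBP tag and KANMX4 and no URA3 marker. The other 14 arrays are labelled MA2 (CCT2 D90E), MA3 (CCT3 D91E), MA5 (CCT5 D117E), MA7 (CCT7 D96E) and MA8 (CCT8 D98E), with 2 arrays each, the second arrays of MA1 and MA6, and 2 arrays of the wild type, WT. The labels of MA2, MA3, MA5, MA7 and MA8 name a URA3 marker, and that of WT names none. All strains, WT included, share the CBP-tagged CCT6 and the alleles pep4-3, prb1-1122, prc467, ura3-52, leu2-3, gal2, trp1 and leu2, so the genes of the main vacuolar proteases are mutated in the controls too. The labels do not say whether 2 arrays of a strain came from separate cultures.

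The data go against these labels, so the arrays are described rather than the labelled substitutions. URA3, the gene of orotidine-5′-phosphate decarboxylase, was at 11.74 on the CCT2-low array labelled MA1 and at 11.70 on the one labelled MA6. Of the other 14 arrays, 4 had URA3 under 10 and the highest was 12.05, and the MA6 label names no URA3 marker. The 2 CCT2-low arrays carry different labels and yet were more alike than either was to its own second array. Over 5449 genes, the root mean square difference between them was 0.12 on the log2 scale, against 0.40 between the 2 arrays labelled MA1 and 0.38 between the 2 labelled MA6. Their distances to the other arrays ran from 0.33 to 0.59 for MA1 replicate 1 and from 0.34 to 0.62 for MA6 replicate 1, and MA7 replicate 1 was the nearest to both. Between the CCT2-low arrays, 5044 genes (92.6%) lay within 0.2 of each other. The 2 genes at least 2-fold apart, the small open reading frames YBR298C-A and YDL159W-A, were higher on MA1 replicate 1, at 5.94 and 5.71, and stood at 4.52 and 4.55 on MA6 replicate 1. From here on the values of a gene are given for MA1 replicate 1 and then MA6 replicate 1, followed by the lowest, the median and the highest of the other 14 arrays, all as log2 expression.

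CCT2 (YIL142W) was at 10.64 and 10.47 on the CCT2-low arrays, against 12.93, 12.98 and 13.19 on the other arrays. The other arrays were close to each other, and the CCT2-low arrays lay 2.29 (4.90-fold) beneath the lowest of them. The 2 arrays labelled MA2, whose substitution is in CCT2, were inside that range at 12.97 and 13.06.

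The remaining 7 CCT subunit genes were close to their usual level. TCP1, which encodes subunit CCT1, was at 12.45 and 12.41 on the CCT2-low arrays, against 12.50, 12.67 and 12.85 on the others. CCT4 was at 12.93 and 12.89, against 12.99, 13.02 and 13.13. CCT7, at 12.07 and 12.08 against 12.16, 12.31 and 12.96, and CCT8, at 12.74 and 12.69 against 12.80, 12.96 and 13.54, were likewise a little below all other arrays, by gaps of 0.08 and 0.06. CCT3, CCT5 and CCT6 overlapped the other arrays. CCT3 was at 12.13 and 12.07, against 10.16, 12.30 and 13.21, and its lowest values, 10.16 and 10.22, belonged to the second arrays of the same 2 labels. CCT6, the gene of the tagged subunit, was at 12.62 and 12.46, against 11.46, 12.73 and 12.94. Its values of 11.46 to 11.94 belonged to MA8 replicate 1, MA2 replicate 2, MA5 replicate 1 and WT replicate 1. Both CCT2-low arrays were below the remaining arrays, the lowest of which was MA7 replicate 1 at 12.67. The prefoldin and phosducin-like cofactors, which hand proteins to CCT or assist it, had a median of 0.05. On both CCT2-low arrays 2 of these 7 genes lay below all other arrays, beside 12.4% of all genes. GIM3, a prefoldin subunit, was at 11.73 and 11.70, against 11.82, 11.89 and 12.13. In all, 8 of 8 subunit genes had a negative difference, defined here as the mean of the CCT2-low arrays minus the median of the other 14. CCT2 is 1 of these 8 and was low by the choice of the arrays. Over all genes, 2746 of 5449 had a negative difference. The list median, with CCT2 included, was -0.23 against -0.00 for all genes.

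The genes on either side of CCT2 did not share its low level. SSL2, a helicase subunit of the transcription factor TFIIH and the neighbour on one side, was at 10.41 and 10.34, against 10.26, 10.39 and 10.61. AXL2, a plasma membrane protein that marks the axial bud site and the neighbour on the other side, was higher on the CCT2-low arrays, at 12.05 and 12.07 against 10.83, 11.04 and 11.90. The highest other array for AXL2, MA3 replicate 1, came within 0.15. Among the next genes out, OM45, a mitochondrial outer membrane protein, stood above the other arrays at 10.48 and 10.64 against 9.42, 9.98 and 10.24, PAN6 (pantothenate synthase) lay below them by 0.07, and NDC80 (a kinetochore protein) above them by 0.05, a gap that did not hold under quantile normalization. The remaining 5 of the 10 neighbours overlapped.

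**Figure D1:**
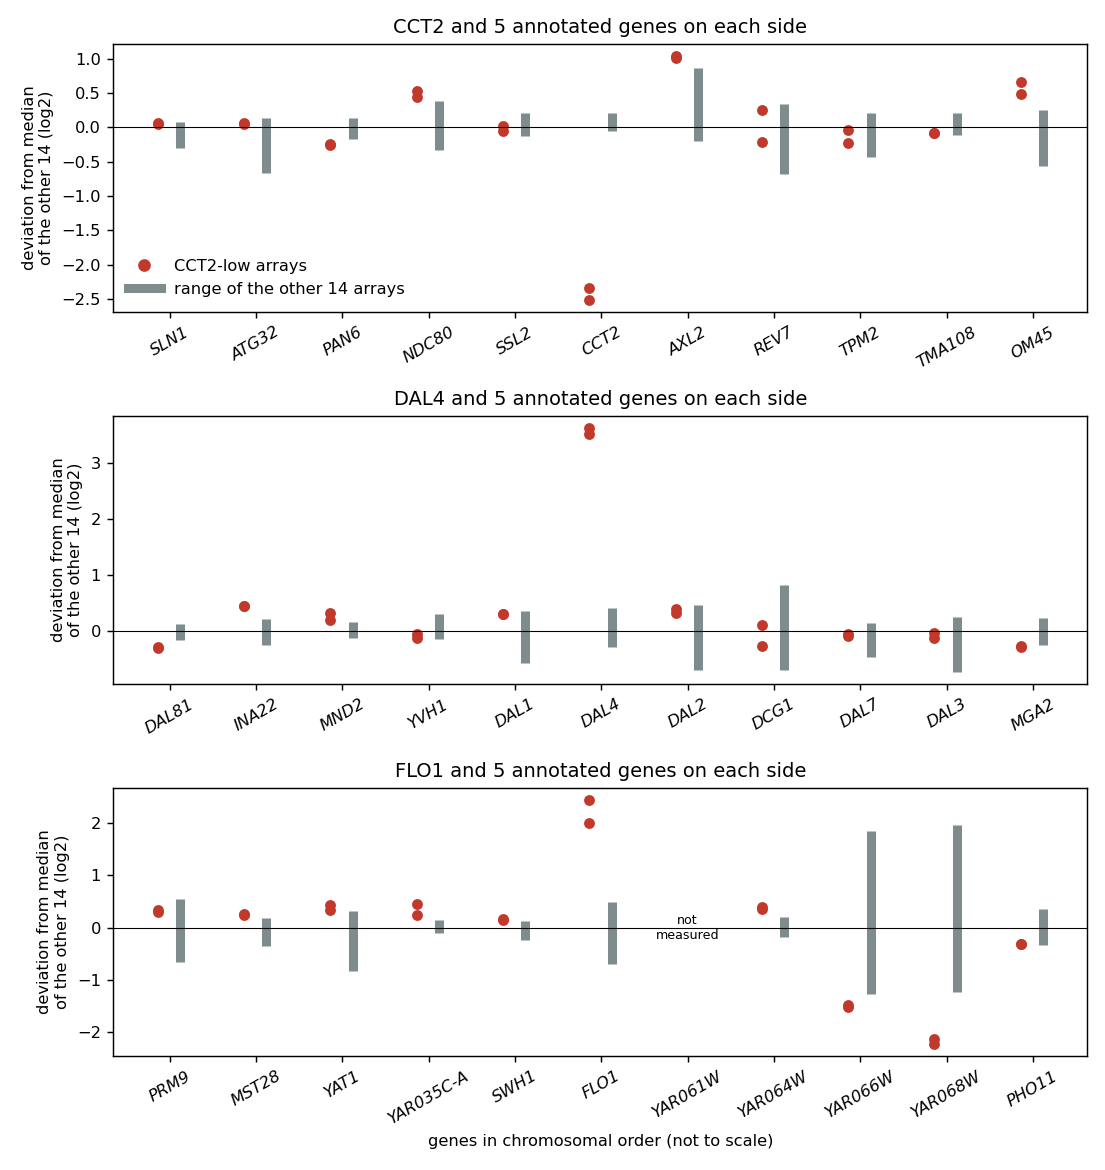
CCT2, DAL4 and FLO1, each with 5 annotated genes on either side in chromosomal order (x axis), and log2 deviation from the median of the other 14 arrays (y axis). Red points are MA1 replicate 1 and MA6 replicate 1, grey bars the range of the other 14 arrays. CCT2 lies 2.29 below its bar and DAL4 3.11 above it while the genes next to them do not follow. Beside FLO1 the genes YAR066W and YAR068W lie below their bars, and MST28, YAT1, YAR035C-A, SWH1 and YAR064W lie 0.02 to 0.15 above theirs.

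A gene is called higher outside when both CCT2-low arrays exceeded all of the other 14, and lower outside when both were beneath all of them. The distance to the nearest of the 14 is the gap. Of 5449 genes, 975 (17.9%) were higher outside and 676 (12.4%) lower outside. With quantile normalization the split turned round, to 804 higher and 914 lower. Gaps of at least 2-fold were rare, with 42 genes (0.771%) above and 4 genes (0.0734%) below. With quantile normalization these were 27 above and 6 below, and without WT replicate 1 and MA5 replicate 1 there were 8 below. These shares describe arrays that were chosen by their values and carry no test.

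For 298 of the 975 higher genes (30.6%) the next array down was MA7 replicate 1, and for 139 more it was MA2 replicate 1. Among the 42 genes with a gap of at least 2-fold, MA7 replicate 1 came next for 23. Without these 2 arrays, an alternative chosen after seeing the data, 1052 genes were higher and 746 lower than all of the remaining 12, and 53 and 6 of them by at least 2-fold. Many of the large gaps were at dim genes: 23 of the 42 had a mean level under 7 on the log2 scale, as did 372 of all genes. For scale, the array's probe sets for the fission yeast S. pombe had a median of 4.35 and 4.33 on the CCT2-low arrays and 4.35 to 4.43 on the others, with 95th percentiles of 5.34 and 5.31 on the CCT2-low arrays and 5.36 to 5.54 on the others.

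**Figure D2:**
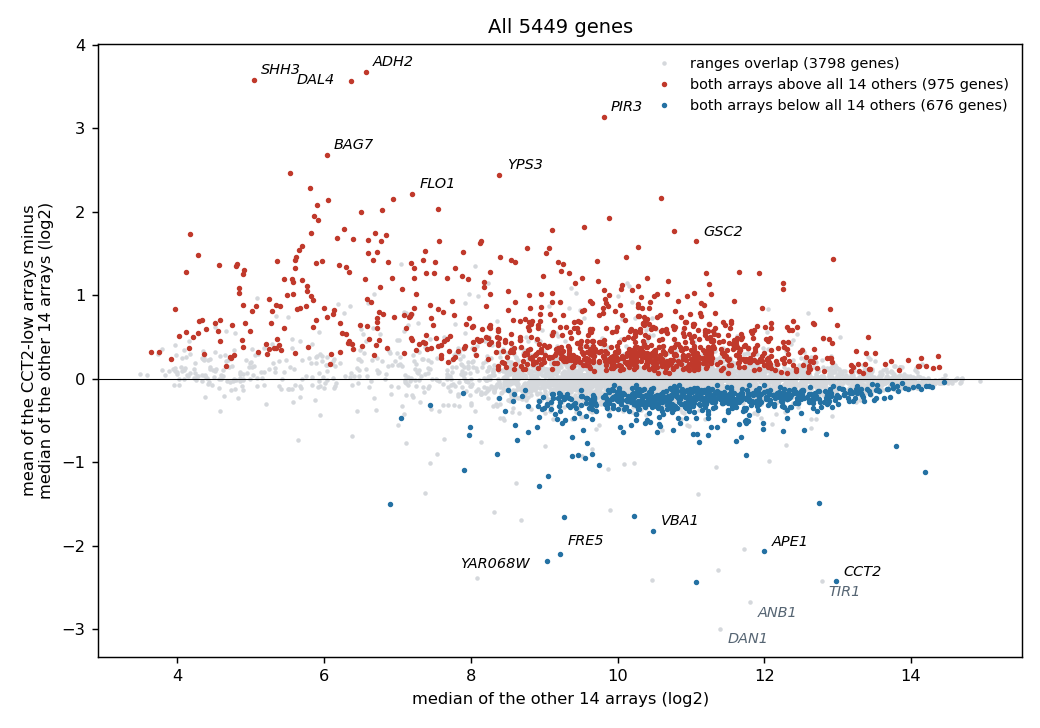
Each point is 1 of 5449 genes, with the median of the other 14 arrays on the x axis (log2) and the mean of the CCT2-low arrays minus that median on the y axis (log2). Red genes (975) were above and blue genes (676) below all 14 other arrays on both CCT2-low arrays, and in 3798 grey genes the ranges overlapped. DAL4, ADH2 and SHH3 lead above, CCT2 below, and the grey points DAN1, ANB1 and TIR1 lie far below the median without leaving the range.

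Other measures of the arrays were as follows. The median over all probe sets was 6.99 and 7.12 on the CCT2-low arrays, above the 6.40 to 6.83 of the other arrays, while the median over the S. cerevisiae genes was 10.49 and 10.50, against 10.47 to 10.49. The difference between 3′ and 5′ probe sets, a measure of RNA integrity, lay within the range of the other arrays for all 7 control transcripts tested (for ACT1, 0.44 and 0.41 on the CCT2-low arrays and 0.38 to 0.48 on the others). On MA3 replicate 1 and MA7 replicate 2, both among the other 14, the genes of chromosome X had median deviations of 0.71 and 0.77, against -0.04 and -0.02 on the CCT2-low arrays. On this chromosome 4 of 316 genes (1.27%) were higher outside. CCT3, CCT5, CCT7 and CCT8 lie on this chromosome.

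DAL4 (YIR028W), the allantoin permease, had the largest gap of all genes. It was at 9.89 and 9.99 on the CCT2-low arrays, against 6.10, 6.37 and 6.78 on the others, a gap of 3.11 (8.61-fold). The second arrays of the same labels were among the others, and MA1 replicate 2 was the lowest of them. DAL4 sits in a cluster of genes for allantoin use, and this cluster was not high as a whole. DAL1, the allantoinase next to it, was at 6.25 and 6.24, against 5.38, 5.94 and 6.31, and DAL2, the allantoicase on its other side, at 8.28 and 8.22, against 7.21, 7.89 and 8.37. The ureidoglycolate lyase gene DAL3 (8.70 and 8.79, against 8.10, 8.81 and 9.08) and the malate synthase gene DAL7 (9.51 and 9.47, against 9.09, 9.56 and 9.70) overlapped too. Of 8 measured genes of allantoin degradation, DAL4 was the 1 outside the range, and the list median was 0.09 as deposited and -0.02 with quantile normalization.

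Among the other genes of nitrogen use, PUT1, the mitochondrial proline oxidase, was at 9.69 and 9.81, against 7.32, 8.12 and 8.54, a gap of 1.15. GDH2, the NAD-dependent glutamate dehydrogenase, was at 12.37 and 12.40, against 11.06, 11.83 and 12.17. In that list 5 of 23 were higher outside and 1 lower, beside 17.9% and 12.4% of all genes. The list median was 0.03 as deposited and -0.01 with quantile normalization.

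ADH2 (YMR303C), the glucose-repressed alcohol dehydrogenase that turns ethanol into acetaldehyde, was at 10.29 and 10.19 on the CCT2-low arrays, against 6.10, 6.57 and 7.94 on the others. Its gap was 2.25 (4.76-fold), and MA7 replicate 1 was the highest of the others. Genes for the further use of ethanol, acetate and lactate were high with it. CYB2, the mitochondrial L-lactate dehydrogenase, was at 9.58 and 9.60, against 6.57, 7.55 and 8.47. ALD4, the main mitochondrial aldehyde dehydrogenase, was at 13.11 and 13.29, against 11.65, 11.93 and 12.48. JEN1, the lactate permease, was dimmer at 6.83 and 6.93, against 5.70, 6.21 and 6.43, and its gap did not hold under quantile normalization. In this list 7 of 9 genes were higher outside and none lower, with a median difference of 0.67. With quantile normalization 5 of 9 were higher outside and the median was 0.30.

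Peroxisomal β-oxidation, the route by which yeast degrades fatty acids, had 8 of 11 genes higher outside and a median of 0.49. POX1, the acyl-CoA oxidase of its first step, was at 8.46 and 8.55, against 5.26, 6.50 and 6.89. SPS19, a peroxisomal 2,4-dienoyl-CoA reductase, was at 9.29 and 9.54, against 7.43, 7.89 and 8.10. POT1, the thiolase of the last step, was at 6.96 and 7.20, against 5.23, 5.62 and 6.17. All 11 genes of the list had a positive difference as deposited, and 1 was lower outside with quantile normalization.

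Of the 10 genes of gluconeogenesis and the glyoxylate cycle, 3 were higher outside and none lower, beside 17.9% and 12.4% of all genes. In this list 9 had a positive difference, and the median was 0.26. MLS1, the glyoxylate cycle's malate synthase, was at 7.14 and 7.30, against 5.98, 6.58 and 6.86. The isocitrate lyase gene ICL1 overlapped at 6.93 and 7.19, against 5.48, 7.11 and 7.48, and so did PCK1 (phosphoenolpyruvate carboxykinase) at 9.62 and 9.49, against 8.64, 9.31 and 9.75. FBP1 (fructose-1,6-bisphosphatase) was at 6.17 and 6.21, against a highest other value of 6.20, and overlapped as well.

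Of 15 regulators of glucose repression, 7 were higher outside and 1 lower, beside 17.9% and 12.4% of all genes. With quantile normalization 4 were higher and 1 lower, beside 804 and 914 of all 5449 genes. CAT8, an activator of gluconeogenic genes, was at 8.05 and 8.22, against 6.21, 7.06 and 7.42. MTH1, a glucose-responsive corepressor of hexose transporter genes, was at 8.46 and 8.63, against 6.89, 7.22 and 7.83. ADR1, the activator of ADH2 and of peroxisomal genes, was at 10.45 and 10.61, against 8.66, 9.03 and 10.34, with MA3 replicate 1 close beneath.

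Among 12 hexose transporter genes, 4 were higher outside, beside 17.9% of all genes. HXT7, a high-affinity transporter, was at 11.86 and 11.75, against 9.58, 9.88 and 11.11, and HXT7 and its near-identical neighbour HXT6 may not be told apart by their probes. The low-affinity transporters HXT1 (12.47 and 12.48, against 12.29, 12.50 and 12.58) and HXT3 (13.83 and 13.81, against 13.53, 13.84 and 13.93) sat at the median of the others. The maltase gene MAL32, which is near-identical to MAL12, was at 8.72 and 8.82, against 6.77, 7.35 and 7.51. Invertase, encoded by SUC2, was by contrast lower at 9.95 and 9.85, against 10.17, 10.54 and 10.86.

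Glycolysis and fermentation had 1 of 17 genes higher outside and a median of -0.00. The tricarboxylic acid cycle had 7 of 15 genes higher outside with a median of 0.20, and the respiratory chain with ATP synthase 16 of 35 with a median of 0.25. No gene of these lists was lower outside. LSC2, a subunit of succinyl-CoA ligase, was at 11.66 and 11.75, against 10.81, 11.04 and 11.24. QCR10, a subunit of the cytochrome bc1 complex, was at 11.34 and 11.53, against 10.61, 10.89 and 11.07. The external NADH dehydrogenase gene NDE2 was at 8.75 and 8.59, against 6.25, 7.74 and 7.98. SHH3 (YMR118C), whose product resembles the succinate dehydrogenase subunit Sdh3, was the gene with the second-largest gap above, at 8.64 and 8.60, against 4.29, 5.04 and 6.24.

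**Figure D3:**
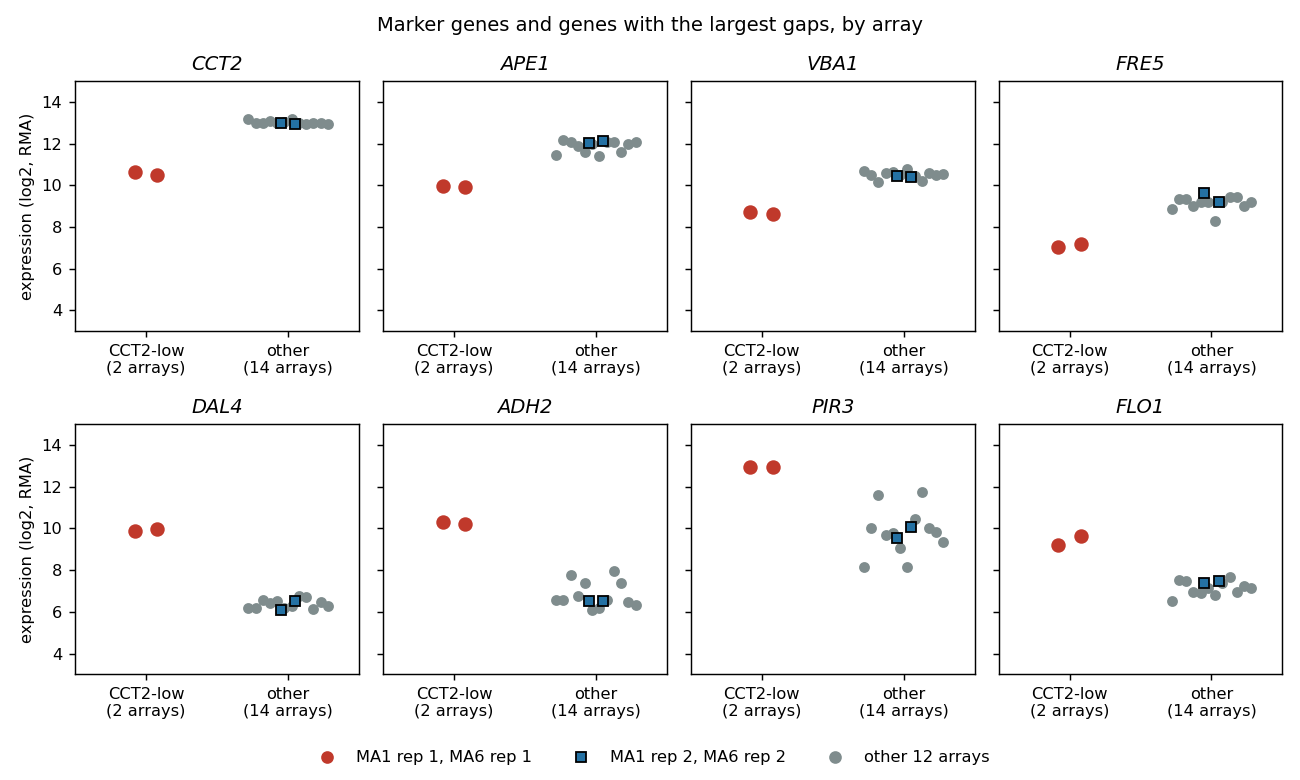
Log2 expression (y axis) of 8 genes on the 2 CCT2-low arrays (red, left) and on the other 14 arrays (right), of which blue squares are MA1 replicate 2 and MA6 replicate 2. CCT2, APE1, VBA1 and FRE5 lay below every other array by at least 2-fold, and DAL4, ADH2, PIR3 and FLO1 above every other array by at least 2-fold, while the second arrays of the same labels sat with the other 12.

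PIR3 (YKL163W), a glycoprotein linked to the glucan of the cell wall, was at 12.95 on both CCT2-low arrays, against 8.15, 9.81 and 11.73 on the others. The gap was 1.22 (2.32-fold), and MA7 replicate 1 was again the highest of the others. The related wall proteins did not share this level. PIR1 was at 13.03 and 13.04, against 12.87, 13.01 and 13.19, HSP150 at 14.25 and 14.14, against 13.69, 14.06 and 14.26, and CIS3 at 13.74 and 13.71, against 13.49, 13.62 and 14.02.

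PIR3 is a target of the cell wall integrity pathway, in which sensors at the plasma membrane act through the GTPase Rho1, protein kinase C and the MAP kinase Slt2 on the transcription factor Rlm1. Of 23 measured targets in the list, 18 were higher outside and none lower, with a median difference of 0.35. GSC2, an alternate catalytic subunit of β-1,3-glucan synthase, was at 12.71 and 12.72, against 9.86, 11.06 and 11.59. The mannosyltransferase gene KTR2 was at 10.57 and 10.64, against 9.16, 9.34 and 9.62, and CWP1, a wall mannoprotein, at 12.97 and 12.89, against 11.39, 11.65 and 12.21. KDX1, which is related to Slt2, was at 10.48 and 10.57, against 7.83, 9.23 and 9.90. The wall protein PST1 was at 13.36 and 13.47, against 11.56, 12.26 and 12.82, and CRH1, an enzyme that links chitin to glucan, at 13.70 and 13.78, against 12.37, 12.90 and 13.24.

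The pathway's own components were higher by less. Of 16 kinases and factors, 9 were higher outside and none lower, with a median of 0.25. SLT2 was at 12.74 and 12.77, against 11.42, 12.09 and 12.40. RLM1 was at 11.40 and 11.39, against 10.29, 10.78 and 11.04. The sensor WSC3 was at 11.02 and 11.10, against 10.14, 10.37 and 10.46, and ROM1, an exchange factor for Rho1, at 9.40 and 9.39, against 7.75, 8.77 and 9.09. BAG7, a GTPase-activating protein for Rho1, had a much larger gap of 1.89 at 8.78 and 8.66, against 5.12, 6.04 and 6.77. YPS3, an aspartic protease anchored at the cell surface, was at 10.86 and 10.81, against 7.91, 8.39 and 9.19, a gap of 1.61.

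FLO1 (YAR050W), a lectin-like wall protein that makes cells flocculate, was at 9.20 and 9.63 on the CCT2-low arrays, against 6.51, 7.20 and 7.68 on the others, a gap of 1.52 (2.87-fold). Its paralogue FLO9 was at 10.77 and 10.88, against 9.82, 10.06 and 10.24. Probes for these similar genes could share transcripts. Of the genes around FLO1, MST28, YAT1, YAR035C-A, SWH1 and YAR064W lay above the other arrays by small gaps of 0.02 to 0.15. Past FLO1 on the same chromosome, YAR066W and YAR068W, which are not well characterized, were low: YAR068W was at 6.90 and 6.81, against 7.79, 9.03 and 10.99, and YAR066W at 5.41 and 5.38, against 5.63, 6.90 and 8.75. The 8 flocculin genes, a list that counts YAR066W and YAR068W, thus held 2 higher and 2 lower outside, beside 17.9% and 12.4% of all genes. The list median was 0.02 as deposited and -0.16 with quantile normalization.

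Genes of the general stress response, which yeast induces under many stresses and on leaving rapid growth, had 25 of 40 members higher outside and none lower, with a median of 0.47. HSP12, a small membrane-associated heat shock protein, was at 14.40 and 14.37, against 10.56, 12.94 and 13.69, near the top of the scale. SPG4, a gene needed in stationary phase, was at 8.24 and 8.14, against 5.28, 6.05 and 7.03. SSA4, the stress-induced cytosolic Hsp70, was at 11.75 and 11.95, against 10.10, 10.28 and 10.66. SPI1, a wall protein, was at 10.58 and 10.73, against 9.07, 9.81 and 9.97. The small heat shock protein HSP26 did not follow, at 10.77 and 10.97, against 9.50, 11.12 and 11.96. SSA4 and HSP26 are both in the list of 28 heat shock proteins and cytosolic chaperones, which had a median of 0.04. In it 3 were higher and 2 lower outside, beside 17.9% and 12.4% of all genes.

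Storage carbohydrate genes were high in part. Of 20 genes of trehalose and glycogen metabolism, 10 were higher and 2 lower outside, beside 17.9% and 12.4% of all genes. The list median was 0.29. GAC1, the subunit that directs the phosphatase Glc7 to glycogen synthase, was at 8.01 and 7.98, against 4.84, 5.53 and 6.88. The glycogen phosphorylase gene GPH1 was at 10.80 and 10.96, against 7.99, 9.10 and 10.06, and GSY2, a glycogen synthase, at 11.57 and 11.63, against 10.43, 10.87 and 11.18.

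Meiotic genes were among the largest gaps, at low levels. SPO1, a meiosis-specific phospholipase homologue, was at 8.54 and 8.60, against 5.36, 6.85 and 7.15. MPC54, a component of the meiotic spindle pole body, was at 8.33 and 8.56, against 5.79, 6.69 and 7.03. MIP6, an RNA-binding protein, was at 7.59 and 7.53, against 5.55, 5.82 and 6.15, and AMA1, an activator of the meiotic anaphase-promoting complex, lay above the others by 1.26. In the list of 14 sporulation genes 7 were higher outside and none lower, with a median of 0.38 as deposited and 0.21 with quantile normalization. The median level of the list was 6.09. Of all 239 genes with a mean level between 5 and 7, 104 (43.5%) were higher outside and 1 lower, with a median of 0.32. The protein kinase SPS1 was at 7.49 and 7.63, against 5.78, 6.20 and 6.62, and HOP1, a protein of the meiotic chromosome axis, at 8.37 and 8.51, against 5.80, 7.23 and 7.56.

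The regulators of the meiotic programme overlapped the other arrays. IME1, its master regulator, was at 8.77 and 8.70, against 8.34, 9.07 and 9.24. The kinase IME2 was at 8.32 and 8.36, against 7.72, 8.24 and 8.88, and the transcription factor NDT80 at 8.77 and 8.92, against 8.01, 8.72 and 8.90. Over 6 markers of sporulating diploid cells, 2 were higher outside. Their summed level (log2 of the sum of linear values) was 10.46 and 10.51, inside the 10.12 to 10.57 of the other arrays. Their mean level was 7.37 and 7.43, above the 6.77 to 7.28 of the other arrays.

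Among smaller groups, the neighbours BIO4 and BIO3 of biotin synthesis were high, BIO4 (dethiobiotin synthetase) at 9.49 and 9.61, against 6.71, 8.26 and 8.37, and BIO3 at 9.88 and 9.78, against 8.52, 9.13 and 9.34. In their list of 19 vitamin genes 8 were higher outside, with a median of 0.39. PHO5, a secreted acid phosphatase, was at 9.54 and 9.57, against 7.65, 8.51 and 8.82. The phosphate transporter PHO89 was at 8.64 and 8.66, against 6.56, 7.39 and 7.99. The phosphate list of 23 had 4 higher and 1 lower outside, beside 17.9% and 12.4% of all genes. The remaining genes among the 15 largest gaps above were YKL107W, DDI3, YGL230C, YNR064C and YNL194C, with gaps of 1.64, 1.42, 1.36, 1.33 and 1.31. DDI3 is identical in sequence to DDI2, so its value stands for both. YNR064C and the 2 genes after it, YNR065C and YNR066C, were all at least 2-fold above the other arrays, with gaps of 1.33, 1.29 and 1.13.

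**Figure D4:**
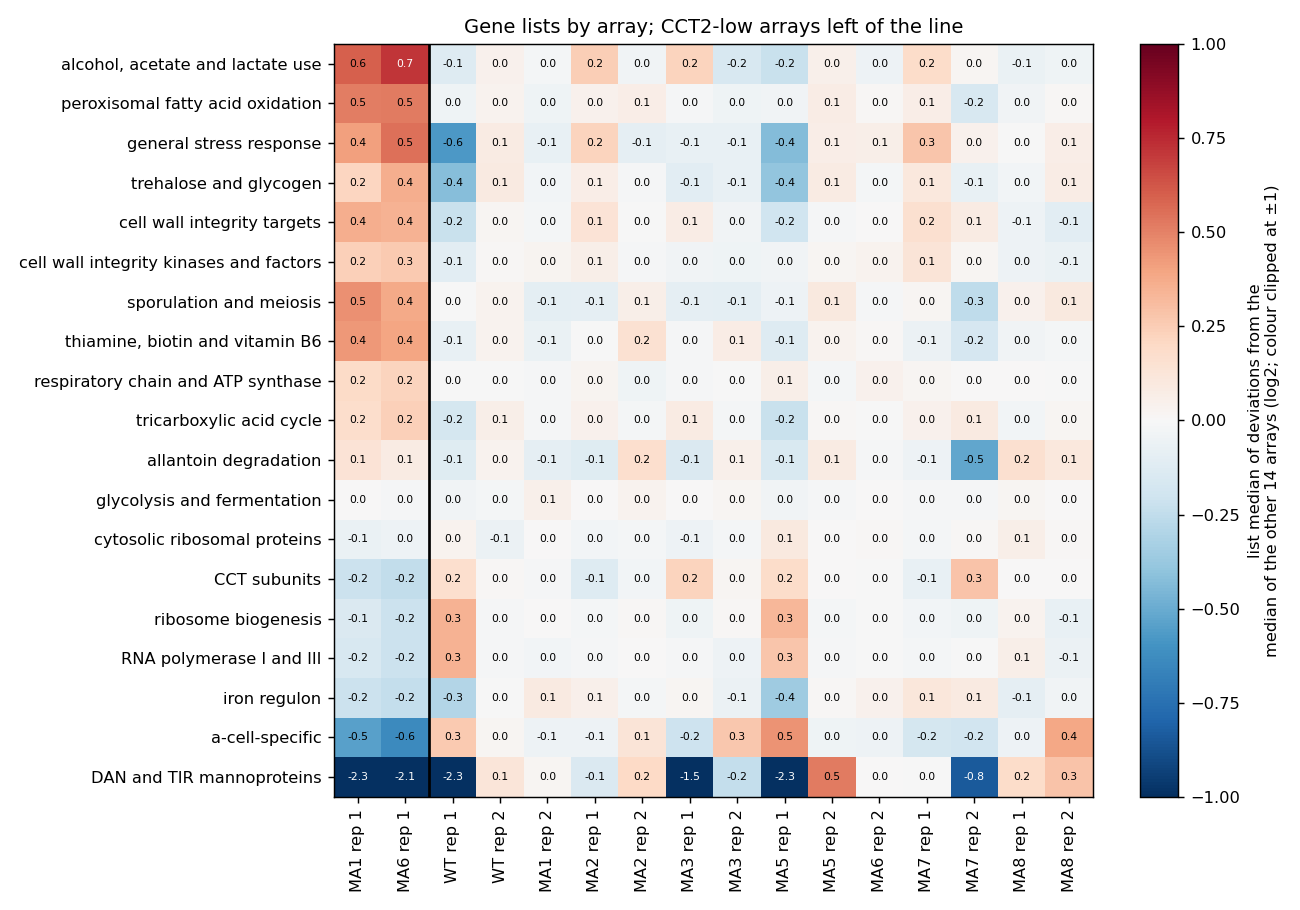
Median over each gene list (rows) of the deviations from the median of the other 14 arrays, in log2 units, on each of the 16 arrays (columns), with the CCT2-low arrays left of the line and colours clipped at ±1. Most carbon, stress and wall lists are positive and the CCT, ribosome biogenesis and iron lists negative on both CCT2-low arrays. The general stress, cell wall integrity target and alcohol lists are also positive, by less, on MA2 replicate 1 and MA7 replicate 1. For general stress these values are 0.23 and 0.27. The alcohol list is also positive on MA3 replicate 1. On WT replicate 1 and MA5 replicate 1 these lists are negative, with general stress at -0.57 and -0.43. The iron list is also low on WT replicate 1 and MA5 replicate 1, and the DAN and TIR list on these, MA3 replicate 1 and MA7 replicate 2.

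Fewer genes were far below the other arrays. APE1 (YKL103C), a vacuolar aminopeptidase, was at 9.95 and 9.92 on the CCT2-low arrays, against values from 11.42 to 12.19 on the others, a gap of 1.47 (2.77-fold). VBA1 (YMR088C), a permease for basic amino acids in the vacuolar membrane, was at 8.71 and 8.63, against 10.17, 10.49 and 10.80. FRE5 (YOR384W), a putative ferric reductase, was at 7.05 and 7.18, against 8.30, 9.21 and 9.64. Together with CCT2 these were the 4 genes at least 2-fold below.

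Vacuolar proteases other than APE1 were not low. Of the list's 10 genes, 5 were higher outside and APE1 was the 1 lower, beside 17.9% and 12.4% of all genes. PRB1, which encodes proteinase B and is mutated in all strains, was at 11.58 and 11.64, against 10.45, 11.26 and 11.43.

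Iron uptake genes were low together with FRE5: 10 of 29 genes of the iron regulon were lower outside and none higher, with a median of -0.22. The list's median deviation was -0.22 and -0.24 on the CCT2-low arrays, and it was more negative on WT replicate 1 (-0.29) and MA5 replicate 1 (-0.36). The wall mannoproteins FIT3, FIT2 and FIT1, which retain iron-bearing siderophores, were all lower. FIT3 was at 13.15 and 12.99, against 13.62, 14.19 and 14.30, and FIT2 at 12.91 and 13.06, against 13.22, 13.80 and 13.97. FIT1 was at 8.62 and 8.64, against 8.77, 11.06 and 11.54, and its lowest other array, MA5 replicate 1, was almost as low. FRE1, a plasma membrane ferric reductase, was at 12.55 and 12.60, against 12.87, 12.92 and 13.33.

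Some genes of mating type a cells were lower as well. BAR1, the protease that degrades α-factor, was at 8.74 and 8.69, against a lowest of 9.43 and a median of 9.75 on the others. STE2, the α-factor receptor, was at 11.95 and 11.90, against 12.13, 12.53 and 12.93, and AGA2, a subunit of a-agglutinin, at 9.73 and 9.74, against 9.93, 10.09 and 10.90. Of 8 a-cell-specific genes 4 were lower outside and 4 overlapped, with a median of -0.59, and 2 of the 8 had a positive difference. Outside that list, FAR1, which arrests the cycle on pheromone, was at 8.54 and 8.38, against 8.89, 9.38 and 10.43. FAR1 is in the pheromone response list, where 2 of 20 were higher and 4 lower outside, beside 17.9% and 12.4% of all genes. HO, the mating-type switching endonuclease and also not in the a-cell list, was at 8.63 and 8.53, against 9.48, 10.22 and 11.03.

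The summed level of 7 markers of a cells was 13.60 on both CCT2-low arrays, below the 13.75 to 14.83 of the other arrays. That of 5 markers of α cells lay, on both CCT2-low arrays, inside the 9.72 to 10.47 of the other arrays. Of these markers STE3, the a-factor receptor, was higher outside at 6.71 and 7.06, against 5.13, 5.77 and 6.60, and its gap did not hold under quantile normalization. The part of cell type composition in these values was not tested.

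Genes that make ribosomes were slightly but widely lower. Of 102 ribosome biogenesis genes 45 were lower outside and 1 higher, with a median of -0.18. The RNA helicase DBP2 was at 11.57 and 11.32, against 11.86, 11.98 and 12.58. HAS1, another RNA helicase, was at 11.34 and 11.11, against 11.61, 11.75 and 12.28. DBP6, a helicase of the large subunit's assembly, was at 10.48 and 10.44, against 10.70, 10.81 and 11.28. Of 18 subunits of RNA polymerases I and III, 7 were lower and 1 higher outside, with a median of -0.18. The cytosolic ribosomal proteins were closer to the other arrays: 11 of 128 were lower outside, beside 12.4% of all genes, with a median of -0.05. With median centring 20 of 128 were lower outside, beside 789 of all 5449 genes. The mitochondrial ribosomal proteins had 10 of 66 higher outside, beside 17.9% of all genes, and a median of 0.05. The proteasome had 1 of 34 on each side and a median of 0.00.

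**Figure D5:**
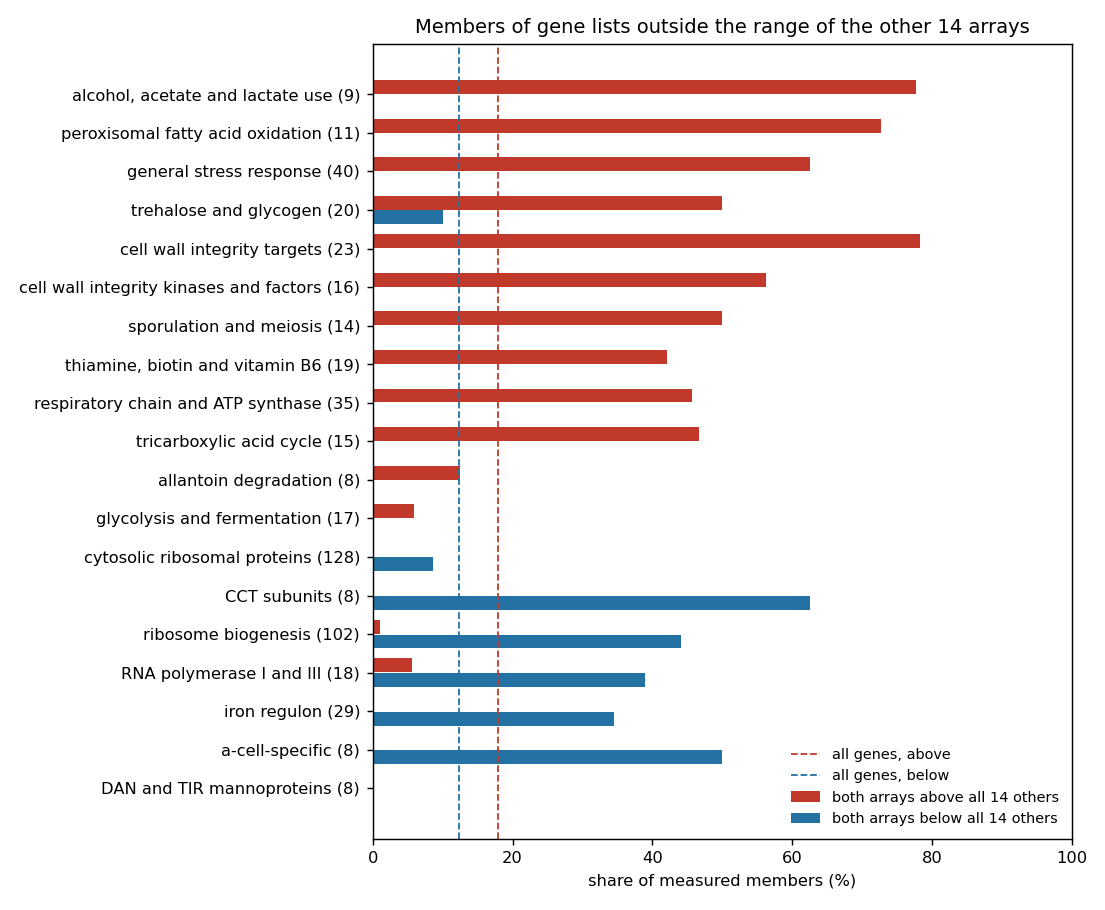
Share of the measured members of each list (number in brackets) that lay above all 14 other arrays on both CCT2-low arrays (red bars) or below all of them (blue bars), in percent. Dashed lines are the shares over all genes, 17.9% above and 12.4% below, and no bar carries a test because the arrays were chosen by their values.

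Further genes among the 15 largest gaps below belonged to no common list. They included NCA3, a wall-associated protein of the SUN family, at 7.67 and 7.54 against 8.62, 9.26 and 10.48, and HMS2, similar to heat shock transcription factors, at 7.63 and 7.67 against 8.29, 8.93 and 10.05. SFG1, a putative transcription factor of pseudohyphal growth, lay below the others by 0.56. The sphingolipid genes YSR3 and ORM1, IRC7, whose product cleaves sulphur amino acids, and YJL047C-A lay below them by 0.45 to 0.47.

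Some genes were far from the median without leaving the range. The DAN and TIR genes, which encode wall mannoproteins expressed under low oxygen, had a median difference of -2.16, the most negative of the 52 lists, yet 0 of 8 were outside. DAN1 was at 8.30 and 8.51, against 6.14, 11.40 and 11.96, and TIR1 at 10.35 and 10.37, against 9.21, 12.78 and 13.27. ANB1, the hypoxic form of translation factor eIF5A, was at 8.97 and 9.29, against 8.51, 11.81 and 12.33. The list's median deviation was -2.25 and -2.07 on the CCT2-low arrays. It was also -2.32 on WT replicate 1, -2.25 on MA5 replicate 1, -1.45 on MA3 replicate 1 and -0.84 on MA7 replicate 2, so low DAN and TIR levels were common to 6 arrays of several labels.

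The genes whose values followed CCT2 most closely over the 16 arrays were largely those that separate the CCT2-low arrays. In the opposite direction they were DAL4, PHO92, HAL1, YOR385W and YPR003C, with Pearson correlations of -0.99 to -0.96. In the same direction they were VBA1, HTS1, APE1, SLC1 and YCH1, with 0.98 to 0.90. These coefficients describe 16 arrays of which 2 lie far from the rest. Over the other 14 arrays alone the coefficient was -0.37 for DAL4, 0.74 for VBA1 and -0.77 for APE1, which is of the opposite sign to its value over all 16.

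The labels allow tests of each strain against WT. With limma, in which each label has 1 mean over its 2 arrays, 0 of 5498 probe sets (0%) differed between MA1 and WT, and 0 of 5498 (0%) between MA6 and WT, at a Benjamini-Hochberg adjusted p under 0.05. At an unadjusted p under 0.05 there were 227 and 635, and the smallest adjusted p was 0.61 for MA1 and 0.403 for MA6. Since CCT2 chose MA1 replicate 1, its difference of -1.27 between MA1 and WT is a description with no test. Its values were 10.64 on MA1 replicate 1 and 12.97 on MA1 replicate 2. Each label thus pairs 1 CCT2-low array with an array inside the range of the rest.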

How the data were processed

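Expression was measured on 16 Affymetrix arrays, 2 for each of 8 strains. Each deposited value is a log2 expression level of a probe set, made by the authors with RMA and Partek per the submitters' processing notes, which state no version. RMA includes background correction, normalization between arrays and probe summary, so values are relative levels. No coordinates are printed, as the array's genome build is not stated in any source used.

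Platform annotation, updated through the R64 gene table (12 symbols differed), paired 5498 of 10928 probe sets with exactly 1 S. cerevisiae gene, for 5449 genes. For the 47 genes with several probe sets the one with the highest mean was used. A further 1746 probe sets were for S. pombe, 1 matched several genes, and 166 control, 47 reporter and 3470 unnamed probe sets were left out of the gene counts. No sequences were used.

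The 2 arrays were described by range and gap, with no test. A linear model with 1 mean per labelled strain was fitted to all 16 arrays by limma (version 3.58.1, R 4.3.3), with moderated two-sided tests on 8 residual plus 2.02 prior degrees of freedom, with Benjamini-Hochberg adjustment. Both steps were run on simulated data with planted shifts. There both arrays of a group were shifted alike, so the simulations cannot show how the steps act where the 2 arrays of a label disagree. Python 3.11.15, numpy 2.4.6, pandas 2.3.3 and matplotlib 3.10.9 were used. The number of arrays limits the precision. The p-values rest on the spread between the 2 arrays of a label, which for MA1 includes CCT2 at 10.64 and 12.97. Whether the 2 arrays of a label came from separate cultures is not stated.

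The members and all 52 lists were chosen with earlier results of these data known. Genes were named if they were markers, CCT genes, the 5 neighbours on each side of CCT2, the 15 largest gaps each way, up to 6 members of a list with at least 2 outside the range, or the 5 closest to CCT2 each way. Genes described as overlapping, the DAN, TIR and ANB1 genes, the 2 genes that differ between the CCT2-low arrays, URA3, STE3, ACT1, HSP26, AMA1, YNR065C, YNR066C and the neighbours of DAL4 and FLO1 were chosen after their values were seen. Alternatives covered median centring, quantile normalization, dim genes (mean under 7), averaging probe sets, single arrays, 3 choices of the other arrays, fitting 2 strains alone, a replicate block, and a variance trend with robust moderation.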

Additional observations from a re-analysis of the deposited data

Results flagged for a closer look

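Of 3470 probe sets with no gene name in the annotation used here, 6 were at least 2-fold above all 14 other arrays on both MA1 replicate 1 and MA6 replicate 1, and 0 were at least 2-fold below. They are listed because they lie outside the named genes that the report compares. The largest gap among them was 1.72 on the log2 scale. At any gap, 72 of these probe sets (2.08%) were higher and 82 (2.36%) lower than all other arrays. Among the 1746 S. pombe probe sets 6 were higher and 34 lower, and 0 by at least 2-fold.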

How the results depend on the processing

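Of 1396 values of 159 genes recomputed under the alternatives, 1115 moved by no more than a spread between arrays. A further 277 moved by more, and 4 gaps turned into an overlap. This spread was the standard deviation of the CCT2-low arrays for genes outside the range, and of the other arrays for overlapping genes. Leaving out dim genes cannot change the value of a gene that is kept. Averaging probe sets can change only the 47 genes with several probe sets. Part of the 1115 unmoved values was thus fixed in advance and is no sign of stability. The split of 975 higher to 676 lower genes was 899 to 789 with median centring and 804 to 914 with quantile normalization, so which side was larger depended on the scaling. The 42 genes at least 2-fold higher became 27 with quantile normalization and 19 without dim genes, where the total of 46 became 23. The 4 genes at least 2-fold lower became 8 without WT replicate 1 and MA5 replicate 1, and 8 without the 4 arrays with low URA3. They became 6 without MA2 replicate 1 and MA7 replicate 1. Leaving out some of the other arrays can only keep or raise such a count. With only 1 of the CCT2-low arrays, between 1976 and 2343 genes were outside the range, 1115 to 1332 of them higher and 861 to 1011 lower, and 48 to 60 by at least 2-fold, of which 43 to 55 were higher and 5 lower in both cases. The gaps of NDC80, JEN1, STE3 and CIT3 ended under quantile normalization, at -0.0051, -0.26, -0.28 and -0.0495, where a negative value for a higher gene is the overlap with the other arrays. The cause was not tested. Limma called 0 probe sets for MA1 or MA6 against WT in every setting run. At an unadjusted p under 0.05, leaving out WT replicate 1 gave 17 and 97, and leaving out WT replicate 2 gave 1228 and 1499. With the replicate number as a block, limma called 0 for MA1 and 0 for MA6, with 200 and 581 at an unadjusted p under 0.05. Same-numbered arrays deviated together in 7 of 28 pairs of strains (correlation above 0.1, median 0.03, range -0.66 to 0.93). Whether same-numbered arrays shared a batch or a culture was not tested.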

Other observations

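Most genes of the best-known CCT substrates and their partners were near the other arrays, but TUB2 and TUB1 lay slightly below all of them. ACT1, the actin gene, was at 14.54 and 14.49 on the CCT2-low arrays, against 14.39, 14.47 and 14.52 on the others. TUB2, the β-tubulin gene, was at 13.04 and 13.01 on the CCT2-low arrays, against 13.12, 13.20 and 13.31 on the others, and TUB1, the main α-tubulin gene, at 12.93 and 12.97, against 12.98, 13.07 and 13.21. Of 20 tubulin and microtubule genes 1 was higher and 3 lower outside, and of 31 actin cytoskeleton genes 4 were higher and 2 lower.

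Over all genes 17.9% were higher and 12.4% lower outside. The higher and lower counts of biosynthetic lists were 1 and 3 of 14 for pyrimidines, 0 and 4 of 19 for purines, 0 and 2 of 13 for leucine and branched-chain amino acids, 1 and 0 of 24 for arginine, lysine and histidine, and 3 and 3 of 28 for methionine and sulphur. FUR1, which salvages uracil, was at 11.95 and 11.92, against 12.24, 12.31 and 12.90. ADE12, adenylosuccinate synthase, was at 12.91 and 12.88, against 13.09, 13.16 and 13.32.

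Of the remaining lists, higher and lower counts were 1 and 4 of 19 for hypoxic and heme-regulated genes, 1 and 1 of 9 for nitrogen regulators, 4 and 1 of 13 for other sugars (1 and 4 with quantile normalization), 1 and 1 of 14 for folding in the endoplasmic reticulum, and 1 and 3 of 24 for ergosterol. They were 3 and 1 of 12 for copper, zinc and manganese, 2 and 4 of 20 for the pheromone response, 2 and 3 of 27 for the cell cycle, 2 and 1 of 17 for septins and bud site genes, and 0 and 0 of 9 for histones. Drug resistance genes had 1 and 0 of 12, DNA damage genes 1 and 1 of 9, and oxidative stress genes 2 and 1 of 14. CYC7, the hypoxic isoform of cytochrome c, stood out in its list at 11.11 and 11.49, against 9.31, 10.32 and 10.54. PCL1, a G1 cyclin, was at 10.89 on both arrays, against 9.60, 9.88 and 10.49, and SRX1, sulfiredoxin, at 10.24 and 10.19, against 8.75, 8.98 and 9.41. These counts are descriptions with no test, as in the report.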
